A study of Mus musculus with 11 samples.

Results

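Pcsk2, Cacng2, Lrfn5, Xkr4 and Celf4 are 5 genes known from neurons at which the peaks of 2 separate GFP pull-downs from cells with GFP-tagged Smchd1 fell on the same bases. They were chosen by position: outside the Hox clusters, a peak found after sonication and a peak found after digestion with micrococcal nuclease (MNase) shared at least 1 bp at each. These genes are 5 of the 17 coding genes with such an overlapping pair within 5 kb outside the Hox clusters, and of the 21779 coding genes considered. The word neural rests on what the genes are known to do and not on a measurement, since the files hold peak positions and no RNA. All peaks of both lists in each gene and within 5 kb of it are described below.

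Smchd1 is a chromatin protein related to the SMC proteins that shape chromosomes, and it is known for keeping genes silent on the inactive X, in the Hox clusters and at some imprinted and protocadherin genes. The 5 genes have roles of mature nerve or secretory cells. Pcsk2 encodes a convertase that cuts prohormones in secretory granules, and Cacng2 encodes stargazin, which brings AMPA-type glutamate receptors to synapses. Lrfn5 encodes an adhesion protein of synapses. Xkr4 belongs to the XK-related membrane proteins, some of which move phospholipids between the leaflets of the membrane, and Celf4 encodes an RNA-binding protein of neurons. Stem cells of the nervous system, the cells used here, divide and have yet to form neurons or glia.

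The data came from lines of neural stem cells derived from C57BL/6 mouse embryos at E14.5 (embryonic day) and grown for at most 20 passages. Knock-in cells were homozygous for an allele that fuses GFP to Smchd1 (Smchd1 GFP/GFP), wild-type cells had no GFP, and both went through the same pull-down with an antibody to GFP; whole cell extract, whose genotype the labels leave out, was the input. In the sonication experiment, the knock-in, the wild-type and the input group each held 2 libraries, all from female cells sonicated for 30 min. In the MNase experiment, the 2 knock-in libraries were 1 male and 1 female, the 2 wild-type libraries were 1 male and 1 female, and the whole cell extract was 1 female library. Each experiment was deposited as 1 list of peaks for all its libraries, 2196 peaks for sonication and 2840 for MNase. No value per library came with a peak, and the sources used here do not say what part the wild-type and input libraries had in calling it. Whether a peak differs from wild-type cells is therefore unknown. The spread between cell lines and the depth are also unknown at these genes, and everything below is a description of positions with no test. The experiments also differed in the sex of the cells, so fragmentation and sex cannot be told apart.

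All 5 genes had their shared peak at 1 end of the gene. The 6 sonication peaks at these genes all lay within 1 kb of the same end, and 4 of them crossed the boundary of the annotated span. Of the 16 MNase peaks, 10 lay within 1 kb of a boundary and 14 within 5 kb, in each case the end that carried the sonication peak. Adjoining peaks are counted apart here, and merging those no more than 1 kb apart leaves 9 MNase peaks. Outside the Hox clusters, 1.98% of all sonication peaks and 15.9% of all MNase peaks came within 1 kb of a coding gene boundary. These shares include peaks far from genes, whereas every peak at the 5 genes lay in a gene or within 5 kb by the rule. Of the 863 sonication peaks in a coding gene or within 5 kb, 43 came that close. Of the 1515 such MNase peaks, 426 did. All 5 genes had a sonication peak and an MNase peak within 5 kb, which chose them; among all coding genes, 3.38% had a sonication peak within 5 kb, 5.28% had an MNase peak and 0.193% (42 genes, Hox genes included) had an overlapping pair. The map of peaks at the boundaries shows how the lists lie against each other.

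**Figure D1:**
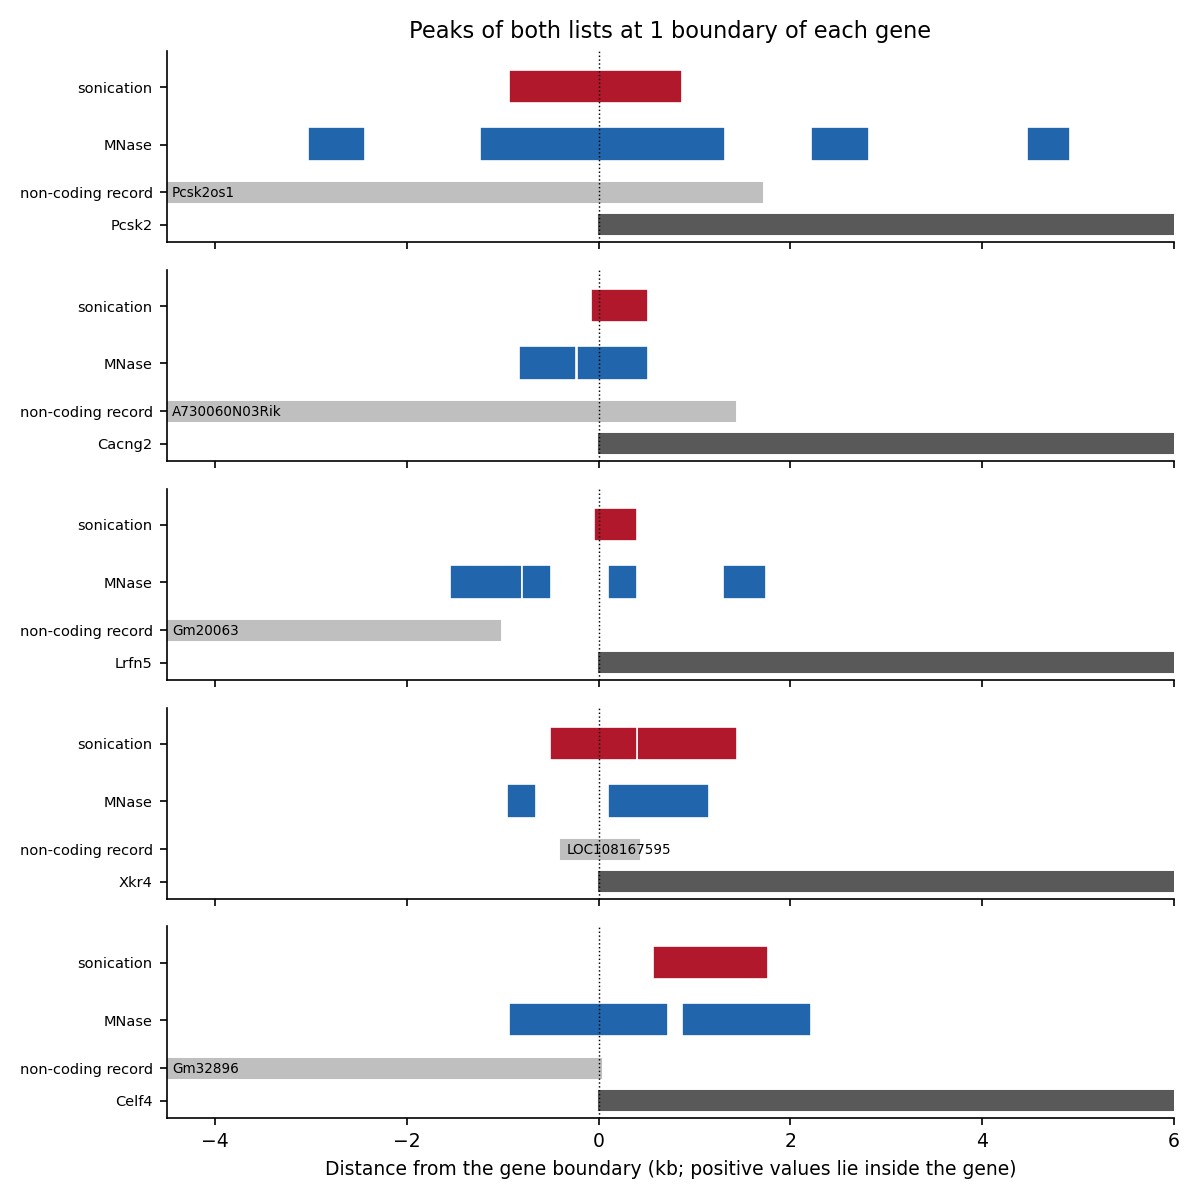
Peaks of the sonication list (red) and the MNase list (blue) around 1 boundary of each of the 5 genes, against distance from that boundary in kb; the dark bar is the gene, cut at the right edge, and the pale bar a non-coding record, cut at the left edge where it runs on. White lines part peaks that adjoin, and every sonication peak shares bases with an MNase peak.

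Pcsk2 had the widest peaks of the group. Its annotated span runs along chr2:143546133-143816284 (mm10), and its RNA starts at the lower end, on the plus strand, in RefSeq. The only sonication peak, chr2:143545201-143547000, was 1800 bp wide and ran from 932 bp before the start to 867 bp after it. No more than 5 of the 2196 sonication peaks were as wide or wider. The MNase peak at chr2:143544901-143547450 was 2550 bp wide and held the whole sonication peak, with a further 300 bp before it and 450 bp after it. Of the MNase list, 1.76% of peaks were as wide or wider. Further MNase peaks of 600, 600 and 450 bp lay 2433 bp before the start and 2218 and 4468 bp after it, and another 2 lay 9.6 and 17.9 kb before it. The MNase list thus held a row of separate peaks along this start, and only 1 of them met a sonication peak. Whether they are separate sites was not tested. Pcsk2os1, a non-coding RNA gene on the opposite strand (chr2:143535476-143547837), spans the shared peak.

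Both lists covered all 300 bases of the Pcsk2 promoter window, which runs from 250 bases before the RNA start to 50 after it and is printed here because the shared peak straddles it. The window of Pcsk1, another convertase of secretory granules, is set beside it. Pcsk1 had an MNase peak there, which covered 244 of the 300 bases, and no sonication peak within 5 kb. Sequences are from RefSeq (GRCm38.p6, the assembly behind mm10), 5′ to 3′ along the gene's own strand; CG dinucleotides, the main sites of DNA methylation in mammals, are in capitals.
Pcsk2, chr2:143545883-143546182, plus strand: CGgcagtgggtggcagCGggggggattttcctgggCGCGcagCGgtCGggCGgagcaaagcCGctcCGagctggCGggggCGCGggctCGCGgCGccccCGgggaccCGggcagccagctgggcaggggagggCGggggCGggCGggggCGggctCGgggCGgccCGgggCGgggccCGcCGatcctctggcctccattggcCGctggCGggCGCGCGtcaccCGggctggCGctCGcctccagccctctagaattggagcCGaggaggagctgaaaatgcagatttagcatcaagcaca
Pcsk1, chr13:75089607-75089906, plus strand: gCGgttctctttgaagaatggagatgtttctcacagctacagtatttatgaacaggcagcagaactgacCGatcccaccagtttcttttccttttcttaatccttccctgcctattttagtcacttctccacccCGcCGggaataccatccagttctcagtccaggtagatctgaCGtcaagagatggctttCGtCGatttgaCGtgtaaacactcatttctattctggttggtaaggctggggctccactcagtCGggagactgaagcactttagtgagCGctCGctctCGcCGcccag
The Pcsk2 window held 36 CG dinucleotides and 76.3% G and C, and the Pcsk1 window held 13 and 49.3%. The GC box GGGCGG, searched on both strands and itself holding a CG dinucleotide, matched 7 times in Pcsk2 and 1 time in Pcsk1; 35.7% of the 32851 promoter windows of the mouse held a match. The TATA box TATAAA matched in neither window, and it occurs in 13.6% of all windows. The motif CCAAT matched 2 times in Pcsk2 and not in Pcsk1, and it occurs in 37.4% of all windows.

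Cacng2 had a shared peak across the upper end of its span, upstream of the 1 RNA start listed for it. The span is chr15:77991919-78120220 and the gene reads from the minus strand, with the RNA start of the promoter table at 78119280. The sonication peak, chr15:78119701-78120300, was 600 bp wide, and 13.4% of the sonication list was as wide or wider. It crossed the upper boundary of the span and lay 421 to 1020 bp upstream of that RNA start. An MNase peak of 750 bp, chr15:78119701-78120450, began at the same base and held the sonication peak, and a second of 600 bp adjoined it with no gap and reached 1770 bp upstream. Neither list therefore touched the promoter window of that start, which ended 171 bp short of both peaks. The span reaches past that start to the upper boundary, for which no promoter window was listed. All 3 peaks lay in A730060N03Rik, a long non-coding RNA gene on the opposite strand (chr15:78118795-78148561).

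The Cacng2 window is shown as the sequence next to, and outside, the shared peak.
Cacng2, chr15:78119231-78119530, minus strand: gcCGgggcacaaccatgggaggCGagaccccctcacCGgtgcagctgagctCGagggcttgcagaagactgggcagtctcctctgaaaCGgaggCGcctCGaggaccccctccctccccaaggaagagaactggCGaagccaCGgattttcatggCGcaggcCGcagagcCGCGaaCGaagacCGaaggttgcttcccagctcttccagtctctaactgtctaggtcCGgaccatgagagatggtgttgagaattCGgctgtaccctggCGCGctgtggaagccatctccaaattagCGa
It held 20 CG dinucleotides and 61.0% G and C, fewer than Pcsk2 on both counts, and no match to any of the 3 motifs.

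Lrfn5 had the narrowest shared peak and the most MNase peaks. The span is chr12:61522851-61857928, read from the plus strand, and the RNA start of the promoter table lies at 61523167. The sonication peak, chr12:61522801-61523250, was 450 bp wide, ran from 366 bp before that start to 83 bp after it, and had a width reached by 33.4% of the sonication list. The MNase peak within it, chr12:61522951-61523250, had the smallest width in the list, 300 bp. Both ended at the same base, and the shared 300 bp made up 66.7% of the sonication peak and all of the MNase peak. MNase peaks of 750 and 300 bp adjoined each other 501 bp and more before the lower boundary of the span, and one of 450 bp began 1300 bp inside it. A further 2 MNase peaks of 300 bp each lay deep in the gene, 130.5 and 103.4 kb from its upper end. These were the only peaks at any of the 5 genes that were more than 5 kb from a boundary. Gm20063, a non-coding RNA gene on the minus strand whose record ends at 61521820, was touched by the outermost MNase peak.

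The sonication peak covered all 300 bases of the Lrfn5 promoter window and the MNase peak 266 of them. Those 266 bases were found in both experiments. The first bases of the window, before the MNase peak begins at 61522951, were in the sonication list alone.
Lrfn5, chr12:61522917-61523216, plus strand: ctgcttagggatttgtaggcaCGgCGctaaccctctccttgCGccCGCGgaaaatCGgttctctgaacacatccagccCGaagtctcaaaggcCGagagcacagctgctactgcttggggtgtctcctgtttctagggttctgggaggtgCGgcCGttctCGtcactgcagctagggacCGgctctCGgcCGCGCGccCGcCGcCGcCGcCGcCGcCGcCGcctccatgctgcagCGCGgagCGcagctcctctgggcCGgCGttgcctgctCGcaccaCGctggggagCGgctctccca
It held 32 CG dinucleotides and 67.7% G and C, between Cacng2 and Pcsk2, and no match to the 3 motifs.

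Counted against all promoter windows, 93.8% held fewer CG dinucleotides than Pcsk2, 90.5% fewer than Lrfn5, 73.5% fewer than Cacng2 and 62.1% fewer than Pcsk1. The ratio of observed CG dinucleotides to the number that the G and C content gives was 0.85 for Pcsk2, 0.94 for Lrfn5 and 0.72 for Cacng2, with a median of 0.38 over all windows. The 13 windows in the genome that both lists overlapped, Pcsk2 and Lrfn5 among them, had a median of 29 CG dinucleotides. Windows in the Hox clusters were not counted apart in these sets. The median was 20 for the 282 windows overlapped by an MNase peak, 20 for the 25 overlapped by a sonication peak and 7 for all 32851. The 12 windows with a sonication peak and no MNase peak had a median of 1, so a high CG count was not shared by all windows under sonication peaks. The table of promoters has no entry for Xkr4 or Celf4. The sequence under the rest of each peak was not examined.

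**Figure D2:**
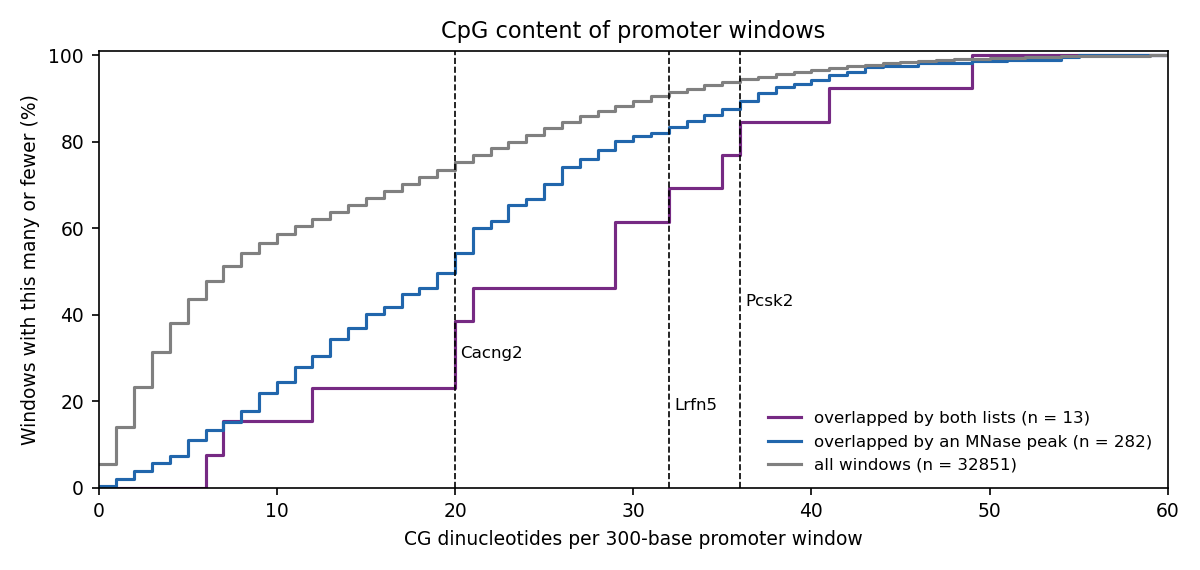
Share of promoter windows (vertical axis, %) with a given number of CG dinucleotides or fewer per 300 bases (horizontal axis), for windows that both lists overlapped (purple), windows overlapped by an MNase peak (blue) and all windows (grey). Dashed lines mark Cacng2 at 20, Lrfn5 at 32 and Pcsk2 at 36, against a median of 7 for all windows.

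Xkr4 was the gene with 2 sonication peaks. Its span is chr1:3199733-3671948, and it is the first coding gene of the chromosome after the assembly gap. The sonication peaks, chr1:3670501-3671550 of 1050 bp and chr1:3671551-3672450 of 900 bp, adjoined with no gap, so that the list splits a single stretch of 1950 bp. Of the sonication list, 1.14% of peaks reached the wider width and 2.5% the narrower. One MNase peak of 1050 bp, chr1:3670801-3671850, lay wholly within that stretch, with 750 bp in the first sonication peak and 300 bp in the second. A second MNase peak of 300 bp began 653 bp beyond the upper boundary, 150 bp past the end of the sonication stretch. The pseudogene LOC108167595 (chr1:3671524-3672335) lies across this boundary under both sonication peaks. Apart from these 4 peaks, which all came within 1447 bp of the upper boundary, the 472.2 kb gene and its flanks had none.

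Celf4 was the only gene whose sonication peak met 2 MNase peaks. The gene spans bases 25477620 to 25754520 of chromosome 18. The sonication peak, from 25752751 to 25753950, was 1200 bp wide and began 570 bp inside the upper boundary. No more than 17 sonication peaks, 0.774% of the list, were as wide or wider. The MNase peak from 25752301 to 25753650 was 1350 bp wide and shared 900 bp with it, and the MNase peak from 25753801 to 25755450 was 1650 bp wide, crossed the boundary and shared 150 bp. The 150 bp between the 2 MNase peaks, 1 step of the grid on which peaks are placed, was covered by the sonication peak. The non-coding RNA gene Gm32896 begins beside this boundary, at 25754496, and was overlapped by the outer MNase peak.

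The shared bases, taken as the longest overlap at each gene, were 1800 bp at Pcsk2, 900 bp at Celf4, 750 bp at Xkr4, 600 bp at Cacng2 and 300 bp at Lrfn5. The overlap filled the sonication peak at Pcsk2 and Cacng2 and filled the MNase peak at Lrfn5, whereas at Xkr4 and Celf4 the peaks were offset. At every gene the MNase peaks reached further out from the gene than the sonication peaks. They also reached further in at 3 genes, Pcsk2, Lrfn5 and Celf4; at Cacng2 both lists ended at the same base, and at Xkr4 the sonication peaks reached 300 bp further. The overlap rule had a sharp edge: the closest pairs that missed it at coding genes without an overlapping pair within 5 kb were 150 bp apart at Irx2, a homeobox gene, 600 bp apart at Pcdh8, a protocadherin gene of the nervous system, and 900 bp apart at Cep85l.

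The 5 are long genes: their spans run from 128.3 kb for Cacng2 to 472.2 kb for Xkr4 with a median of 276.9 kb, against a median of 17.2 kb for all coding genes. Between 91.8% (Cacng2) and 98.8% (Xkr4) of coding genes were shorter. Peaks of either list covered 1.5% of Pcsk2 with its flanks, 1.1% of Celf4, 0.976% of Cacng2, 0.739% of Lrfn5 and 0.467% of Xkr4. The opposite end of each gene had no peak within 5 kb in either list; of all coding genes, 92.1% had no peak of either list within 5 kb of any part of their span. The 1.43 Mb of the 5 spans that lie over 5 kb from an end held no sonication peak and 2 MNase peaks, or 1.4 MNase peaks per Mb. The lists average 0.685 sonication peaks and 1.18 MNase peaks per Mb of the autosomes, so a stretch of this length holds few peaks on average, and nothing is read from these counts.

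**Figure D3:**
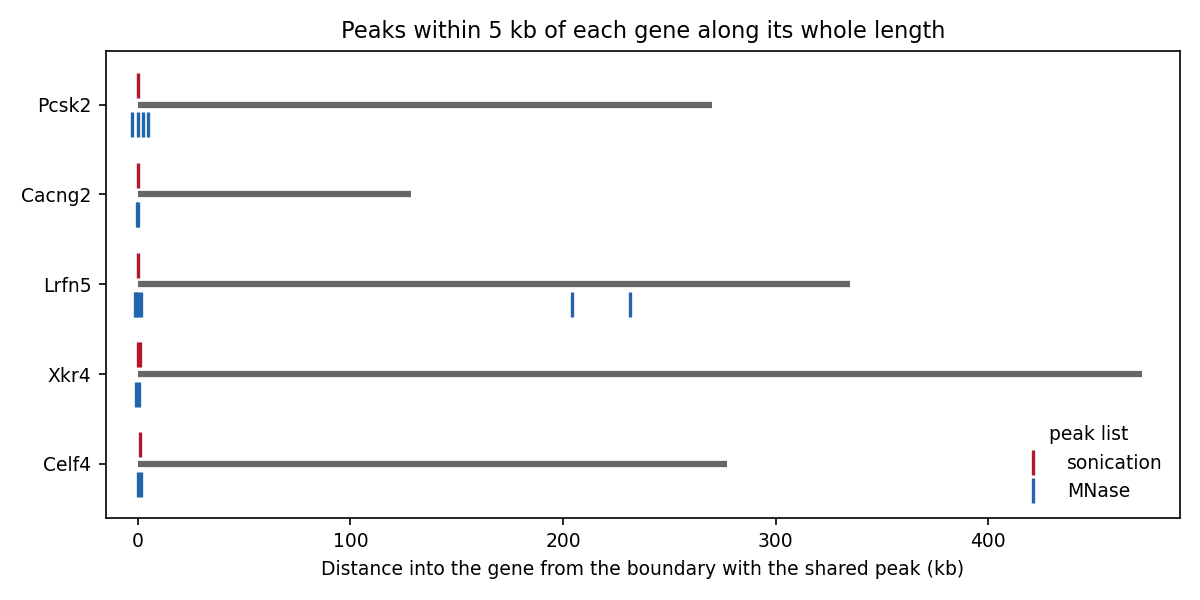
Peaks within 5 kb of each of the 5 genes along the whole gene (grey bar), with the midpoint of every sonication peak above the bar (red) and of every MNase peak below it (blue), in kb from the boundary that carries the shared peak. Peaks gather at 1 end of each gene, and the only ones in the interior are the 2 MNase peaks of Lrfn5.

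Within 100 kb of the peaks at each boundary there was no further sonication peak for any of the 5 genes, and no further MNase peak except the 2 before Pcsk2. The next sonication peak lay 472.6 kb away for Celf4, 578.8 kb for Lrfn5, 861.8 kb for Pcsk2, 1427.0 kb for Xkr4 and 3000.4 kb for Cacng2. On these chromosomes sonication peaks had an average density of 0.598 to 0.845 per Mb and MNase peaks one of 1.1 to 1.26 per Mb. Of the 9 nearest coding neighbours on either side, 8 had no peak within 5 kb in either list: Otor and Bfsp1 beside Pcsk2, Eif3d and Ift27 beside Cacng2, Gm32936 and Fscb beside Lrfn5, Rp1 beside Xkr4 and Pik3c3 beside Celf4. The exception was AW554918, 10.3 kb from Celf4, with 1 peak in each list. Since 92.1% of all coding genes had no peak in either list, 8 of 9 is near the background.

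The sonication peaks at these genes were wider than most of their list. Their widths were 450, 600, 900, 1050, 1200 and 1800 bp, with a median of 975 bp, and none had the smallest width of 300 bp, which 66.6% of the list had. Wide peaks have more chances to overlap another list, and the rule used overlap, so other overlapping peaks are given beside them. The other 20 sonication peaks outside the Hox clusters that overlapped an MNase peak had a median of 750 bp, with 3 at the smallest width. The 23 in the Hox clusters, all of which overlapped, had a median of 1050 bp, and the 2147 peaks elsewhere that did not overlap had a median of 300 bp. In the MNase list the 6 peaks of these genes that overlapped a sonication peak had a median of 1200 bp, and the 20 others outside the Hox clusters 1275 bp. The 10 MNase peaks of these genes that overlapped none ranged from 300 to 750 bp with a median of 450 bp, equal to that of the 2645 other peaks outside the Hox clusters without overlap.

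**Figure D4:**
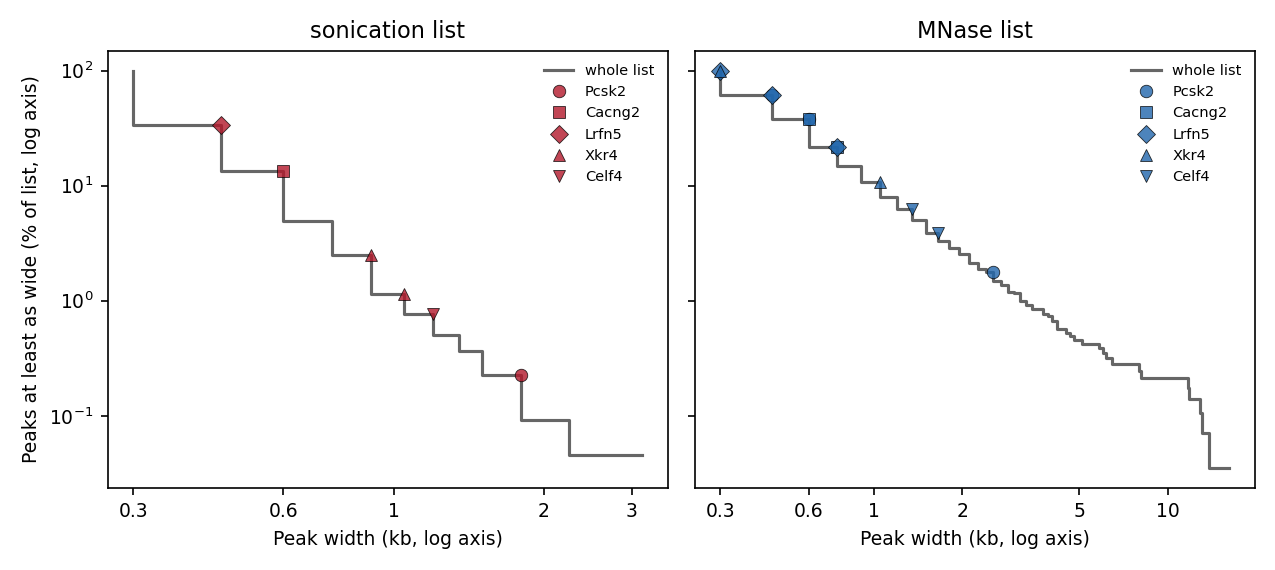
Width of each peak at the 5 genes (markers) on the curve of its whole list, drawn as the percentage of peaks at least as wide against width in kb, both on log axes, with the sonication list left and the MNase list right; markers of equal width coincide. The sonication markers start at 0.45 kb and the widest, Pcsk2 at 1.8 kb, is reached by 0.228% of the list.

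The place of the overlap within the gene was compared with that in other coding genes. Over the whole lists, 49 sonication peaks (2.23% of that list) and 47 MNase peaks (1.65%) overlapped, in 52 pairs, of which 25 were in the Hox clusters, 7 at the 5 genes and 20 elsewhere. Outside the Hox clusters, 26 sonication peaks overlapped an MNase peak, and 9 of the 26 came within 1 kb of a coding gene boundary; 6 of these 9 were the peaks described here. In the Hox clusters, 16 of the 23 overlapping sonication peaks (69.6%) and 18 of the 21 overlapping MNase peaks (85.7%) came that close, so a place at a boundary is not particular to the 5 genes. The Hox shares were not corrected for the length or spacing of the genes. A span with an overlapping pair was found for 15 coding genes outside the Hox clusters. In all 5 genes the longest overlap lay within 1 kb of the gene's own boundary, against 3 of the other 10, Msx1, Evx2 and Ralyl. Msx1 and Evx2 are homeobox genes, and Ralyl encodes an RNA-binding protein related to Raly. In the remaining 7 it lay further in, at 1.52 kb in Zpbp, a sperm protein gene, 4.45 kb in the nuclear receptor gene Nr2f2, 7.24 kb in the transcription factor gene Tfap2a and 11028 bp in the imprinted gene Grb10. It lay 51.5 kb in at Kctd16, 65.0 kb in at Zfp993 and 205.7 kb in at Snrpn. Kctd16, whose product is a subunit of GABA-B receptors, is also a gene known from neurons, so the 5 are not every such gene with an overlapping pair; it was named, with Zfp993 and Snrpn, after its values were seen. Ralyl, at 710.6 kb, and Kctd16, at 291.0 kb, are long genes like the 5. The overlap at Ralyl crossed its own boundary, so a long gene with a shared peak at its end is not particular to the 5. By length of overlap outside the Hox clusters, Pcsk2 and Pcsk2os1, which share 1 pair of peaks, came first of the 23 records of any kind with a pair in their span, ahead of Msx1 and Nr2f2. Other non-coding records among the first 15 were Gm26688, Gm31790, Gm2464, Gm29683 and LOC108167595.

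Each of the 5 genes had a non-coding record under at least 1 of its peaks. At Lrfn5 and Celf4 the record lay under an MNase peak but outside the shared bases. Overlapping pairs at other genes also met such records: Gm31790 at Evx2, Gm2464 at Ralyl and Gm26688 at Tfap2a. A non-coding record is therefore not particular to the 5 genes. Of the 6 sonication peaks 4 overlapped one, against 4 of the 37 other sonication peaks outside the Hox clusters within 1 kb of a coding gene boundary (10.8%). Of the 10 MNase peaks within 1 kb of a boundary 6 did, against 71 of the 416 others at boundaries (17.1%). Adjoining peaks over the same record were counted apart, in the sonication list at Xkr4 and in the MNase list at Cacng2. The peaks are therefore not independent of each other. Wide peaks have more chances to meet a record, and the shares were not corrected for width. Pcsk2os1, A730060N03Rik and Gm20063 read from the strand opposite to their coding gene.

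Relatives and partners of the 5 genes were looked at in the same way. In 8 groups of genes, 68 genes beside the 5 were examined. Of all coding genes 92.1% had no peak of either list within 5 kb, and of these 68 genes 57 had none. A sonication peak was found at 6 (8.82%, where 3.38% of all coding genes had one) and an MNase peak at 8 (11.8%, where 5.28% had one). Long genes hold more bases for a peak to fall on, and the shares were not corrected for length. None of the 68 had an overlapping pair. Only 0.193% of all coding genes had one, so nothing is read from this. The 11 sonication peaks at the 68 genes all lay over 10 kb from a boundary of their own gene, and 10 of the 11 had the smallest width. In the whole sonication list 66.6% of peaks had that width, and outside the Hox clusters 1.98% lay within 1 kb of a coding gene boundary. Of the 863 there that lay in a coding gene or within 5 kb, as these do, 43 came within 1 kb of a boundary.

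Of the 31 other genes in the families of the 5, 1 had a sonication peak (3.23%) and 2 had an MNase peak (6.45%), near the 3.38% and 5.28% of all coding genes. None of the 7 other Cacng genes, the 4 other Lrfn genes or the 7 other XK-related genes had a peak. Of the 5 other Celf genes, Celf1 had 1 sonication peak 19.3 kb inside the gene and Celf2 had 3 MNase peaks of 450 to 600 bp, 86.1 to 195 kb from a boundary. Among the 8 other convertases, Pcsk1 alone had peaks: 4 in the MNase list, of which 3 came within 1 kb of the lower boundary of its span, with widths of 300, 300 and 600 bp. Pcsk1 was the only gene of the 68 with a peak within 1 kb of its boundary; among all coding genes, 1.94% had an MNase peak that close and 0.266% a sonication peak. Its widest peak there was less wide than the 2550 bp peak over the start of Pcsk2.

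Partners in the same processes were counted as well. Of 37 such genes, 5 had a sonication peak (13.5%) and 6 an MNase peak (16.2%), against 3.38% and 5.28% of all coding genes. These shares were not corrected for length, and Nlgn1, Nrxn3 and Ptprd, which had peaks of both lists, span 911.1 to 2270.5 kb. None of 8 genes of prohormone handling and secretory granules, such as Scg5, whose product assists Pcsk2, and Cpe, a carboxypeptidase, had a peak. Of 10 AMPA receptor subunits and auxiliary subunits, Gria3 and Gria4 each had 1 sonication peak of 300 bp, 64.4 and 112.0 kb inside the gene, and none had an MNase peak. Of 19 other synaptic adhesion genes, 6 had an MNase peak and 3 of these also a sonication peak. The 3 were Nlgn1, a postsynaptic neuroligin, Nrxn3, a presynaptic neurexin, and Ptprd, a receptor phosphatase of synapses, with all their peaks 85.8 to 700.0 kb from the nearer boundary. Slitrk1 and Slitrk3, short genes of the same group, had 1 MNase peak each, 1.21 and 2.63 kb from the boundary.

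**Figure D5:**
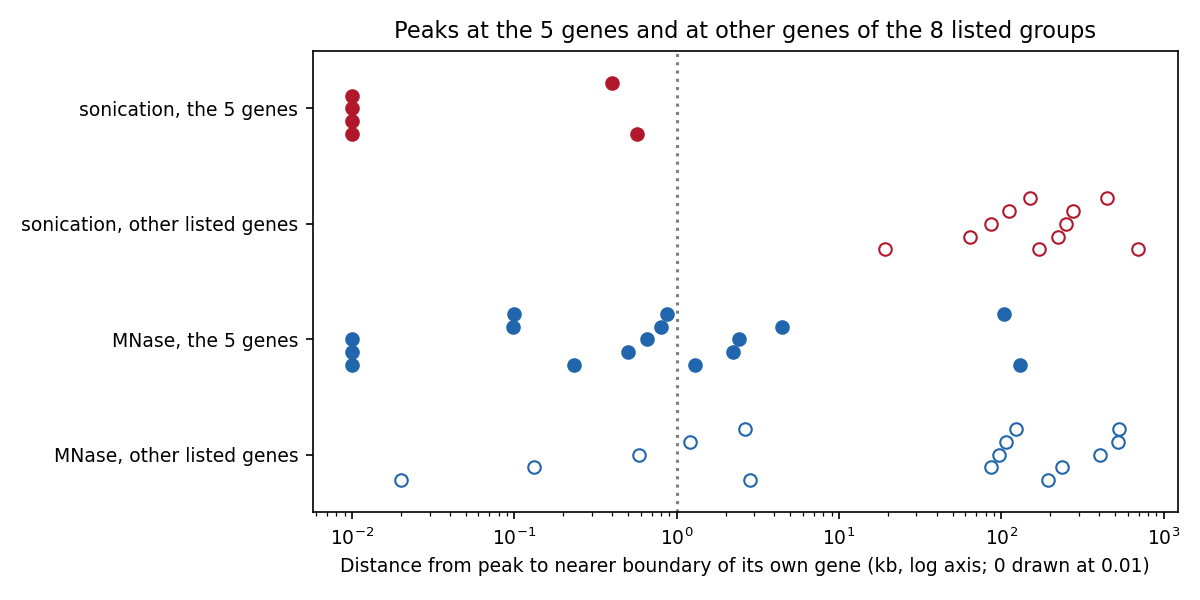
Distance in kb (log axis) from each peak to the nearer boundary of its own gene, for the sonication list (red) and the MNase list (blue), with the 5 genes as filled and the other genes of the 8 groups as open circles; peaks that cross a boundary are drawn at the left edge and the dotted line marks 1 kb. The 6 sonication peaks of the 5 genes lie left of the line and the 11 of the other genes lie right of it, beyond 10 kb. Of all sonication peaks outside the Hox clusters, 1.98% came within 1 kb of a coding gene boundary. Of the 863 in a coding gene or within 5 kb, 43 did.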

How the data were processed

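Chromatin was cross-linked with formaldehyde, fragmented and pulled down with an antibody to GFP, per the labels' protocols. The submitters' processing notes name bcl2fastq, Bowtie 0.12.9, MACS2 and mm10 with no roles. The authors deposited 1 peak list per experiment; the MNase list names SeqMonk as the origin of its peaks, per the file headers and cells. Start and end in bp were used; the value column is empty. Peak edges fall in steps of 150 bp, with a smallest width of 300 bp. A deposited list of 11 domains, with the authors' score for each, was not used for any value given.

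Genes came from a RefSeq table of GRCm38.p6 without strand or exons, so exon, intron and UTR are not stated; 340 records in the first 3 Mb of a chromosome were left out, leaving 49603 records. RNA starts and strand came from a RefSeq promoter table, which held 3 of the 5 genes. Peaks were joined to genes with Python 3.11.15 and pandas 2.3.3; the counting was checked on made-up intervals. The genes named are the 5, up to 15 records outside the Hox clusters with the longest overlap in their span, listed relatives with a peak, and the nearest coding neighbours; Irx2, Pcdh8, Cep85l, Scg5, Cpe, Kctd16, Zfp993 and Snrpn were named after values were seen. Another gene that the naming rule selects, not one of the 5, is not reported here. The 5 genes and the 8 groups were chosen with earlier results of these data known. Alternatives varied the distance, the smallest width, the overlap and the merging of peaks.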

Additional observations from a re-analysis of the deposited data

How the results depend on the processing

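Of 22 values recomputed under other settings, 18 stayed within 1.5 times the value given above. Some of these could not move. The 5 genes were chosen by overlap, so a looser overlap rule had to keep all 5. None of their sonication peaks had the smallest width, so leaving out that width could not change their number. The sonication peaks at the 5 genes numbered 5 or 6 under every setting tried, and all 5 genes kept an overlapping pair when at least 50% of both peaks had to be shared. With peaks of 300 bp left out, 4 of the 5 kept one, because the MNase peak of Lrfn5 in the pair has that width. Merging peaks no more than 1 kb apart brought the MNase peaks at the 5 genes to 9, against 16 unmerged. Among the 68 related genes, leaving out peaks of 300 bp brought those with a sonication peak to 1, against 6, and those with an MNase peak to 4, against 8; counting peaks within 50 kb brought those with an MNase peak to 13. No paired analysis was possible because the files hold no value per library. For the same reason the planned comparison of knock-in with wild-type cells and the omission of single replicates were not run, and depth limits could not be given.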
